A study of Homo sapiens with 6 samples.

Results

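The genes described here are 10 brakes of the cell cycle, taken by symbol from a table of 58302 genes. They comprise the inhibitors of cyclin-dependent kinases (CDKs) CDKN1B, CDKN1C, CDKN2A, CDKN2B, CDKN2C and CDKN2D, the CDK-associated phosphatase gene CDKN3, and the pocket protein genes RB1, RBL1 and RBL2. Each symbol occurred in 1 row, and all 10 were among the 14667 genes that passed the filter on low counts. RNA was sequenced from hTert 1BR3 cells, forearm fibroblasts of 1 line immortalised with telomerase, in 3 samples that had received non-targeting control siRNAs and 3 that had received a pool of siRNAs against MCM7, a subunit of the replicative helicase. According to the study's methods, cycling cells of both groups were transfected first and then starved of serum, which arrests division and induces cilia. The comparison asks how the RNA of these brakes differs between starved cells with and without MCM7. The labels do not say whether the samples were separate cultures, so the p-values refer to the spread among these 6 libraries alone, which may be technical. Throughout, ± after a level is the SD over the 3 libraries of a group.

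CDK inhibitors bind the kinases that drive a cell towards DNA replication. Proteins of the INK4 family (CDKN2A to CDKN2D) bind CDK4 and CDK6, whereas CDKN1B (p27Kip1) and CDKN1C (p57Kip2) act on several cyclin-CDK complexes, above all those with CDK2. With the kinases held back, the pocket proteins keep E2F transcription factors inactive. In resting cells RBL2 joins E2F4 and the MuvB complex in DREAM, which represses genes of replication and mitosis.

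Libraries held between 13721281 and 23969024 counted reads, the smallest and the largest both from the MCM7 siRNA group. MCM7 itself was at 29.4 ± 2.0 CPM in controls (counts scaled to the library size with TMM factors, SD, n = 3) and at 3.34 ± 0.167 CPM after knockdown, and it was lower in every knockdown library. All 10 fibroblast markers were expressed, at a summed level of 68590 to 74340 CPM in controls and 72570 to 75080 CPM after knockdown. Within this list 4 genes were higher (COL3A1, PDGFRA, PDGFRB and LUM) and 2 were lower (VIM and FAP), and their part in the results below was not tested. Of 3 markers of smooth and other muscle, all were tested, at a summed 24.9 to 31.6 CPM in controls and 29.9 to 30.5 CPM after knockdown. Of 5 epithelial markers only KRT8 was tested (7.13 and 6.69 CPM), and of 4 immune markers PTPRC and CD14, each at under 1 CPM on average. None of the 4 endothelial or 4 melanocyte markers passed the filter, and KRT5, CD3E, TYR and SOX10 were at 0 reads in every library. The summed level of 20 DREAM targets of G2 and mitosis was 103 to 110 CPM in control and 121 to 133 CPM in MCM7 siRNA libraries, without overlap. TOP2A alone was at 22.5 CPM in controls and 32.4 CPM after knockdown. Of the 20 genes 5 were called, all higher. CCNA2, BIRC5 and MKI67, named after their values were seen, were lower on average without a call. Among single genes the groups did not overlap for 29.6% of all tested. In bulk RNA a different share of cells in a state and a different amount of RNA per cell cannot be told apart.

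After MCM7 knockdown 3 of the 10 genes were higher, CDKN1C, CDKN1B and RB1, and 1 was lower, CDKN2A. The other 6 did not pass the test, which was the quasi-likelihood test of edgeR with Benjamini-Hochberg adjustment over all tested genes and a threshold of 0.05. Of all tested genes 12.8% passed, 6.18% higher and 6.65% lower. The groups did not overlap for 5 of the 10 genes, against 29.6% of all tested genes. The median log2 fold change was 0.10 over the 10 genes and -0.0028 over all tested genes. The study regarded genes as differentially expressed at an adjusted p under 0.05 in 2 tools, edgeR and DESeq. With edgeR and DESeq2 in their place, 3 of the 10 genes passed, all higher. Of all tested genes 4.3% were called higher and 8.62% in either direction. For its pathway classes the study also required a change of at least 1.5-fold, which among these 3 only CDKN1C reached.

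**Figure D1:**
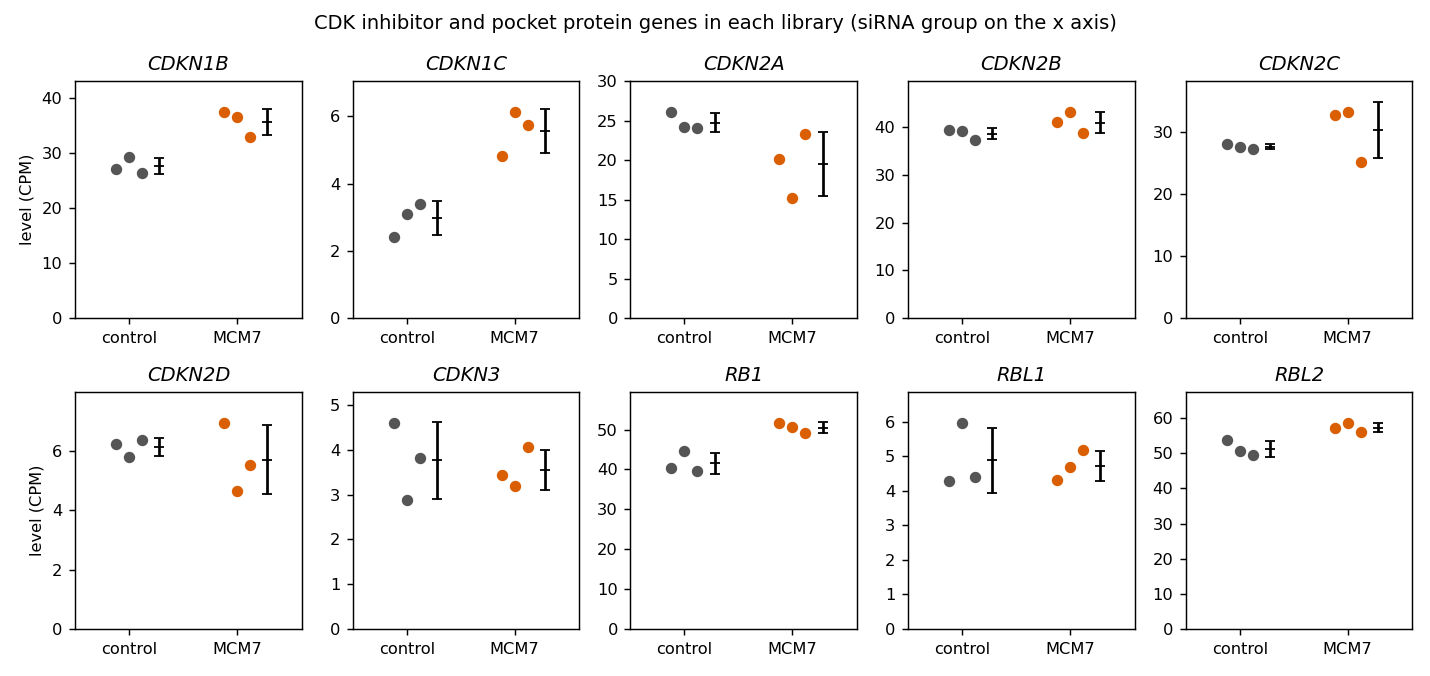
Level of each gene in CPM (y axis, from 0) in the 3 control siRNA and 3 MCM7 siRNA libraries (x axis). Points are libraries, and bars give the mean and SD. The groups stand apart for CDKN1B, CDKN1C, RB1 and RBL2, which are higher after knockdown, and for CDKN2A, which is lower and spreads from 15.2 to 23.3 CPM in the MCM7 siRNA libraries.

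Of the 10 genes, the inhibitors of the CIP/KIP type are CDKN1B and CDKN1C, and both rose. Inhibitors of this type outside the 10 genes were not examined. CDKN1C is an imprinted gene expressed mainly from the maternal allele, and its product restrains growth in many tissues. It lies on chromosome 11 at 2883213 to 2885775 (GRCh38, reverse strand). CDKN1C had 45, 62 and 72 reads with control siRNA and 66, 125 and 137 reads with MCM7 siRNA. On the CPM scale its level was 2.41, 3.09 and 3.4 in the controls and 4.83, 6.12 and 5.73 after knockdown. Every knockdown library was above every control library. CDKN1C rose 1.89-fold (log2 fold change 0.91 ± 0.15 SE, 95% interval 1.52-fold to 2.33-fold, edgeR adjusted p = 7.81e-05). Of the 906 genes called higher, 27 had a larger fold change. It was the only 1 of the 10 genes to pass with a change of at least 1.5-fold as well, a limit that 1.28% of tested genes passed.

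CDKN1B, whose product accumulates in starved fibroblasts and holds CDK2 inactive, lies on chromosome 12 at 12685498 to 12722369 (forward strand). Its level was 27.2, 29.2 and 26.4 CPM with control siRNA and 37.5, 36.6 and 32.9 CPM with MCM7 siRNA. The groups were again separate, with the lowest knockdown library above the highest control. CDKN1B rose 1.29-fold (log2 fold change 0.36 ± 0.07 SE, 95% interval 1.17-fold to 1.42-fold, edgeR adjusted p = 0.000443). Both CDKN1B and CDKN1C kept their calls in each of the 16 alternatives that give an adjusted p at the same threshold, with adjusted p of at most 0.0083 for CDKN1B and at most 0.00235 for CDKN1C.

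Because both genes rose, their ratio within each library was compared as well, a measure that does not depend on the scaling between libraries. The reads of CDKN1C were 0.0888, 0.106 and 0.129 of those of CDKN1B in the controls and 0.129, 0.167 and 0.174 after knockdown. The highest control and the lowest knockdown library had the same ratio to 3 digits. The mean ratio was 1.45-fold higher after knockdown (exact two-sided permutation p = 0.10, the smallest that 3 against 3 samples allow, adjusted p = 0.15 over 3 ratios). A test of this size cannot pass 0.05. The 95% intervals of the log2 fold changes, 0.61 to 1.22 for CDKN1C and 0.22 to 0.50 for CDKN1B, did not overlap. Per length CDKN1C remained the minor gene, at 8.80% to 12.3% of the summed RPKM of CDKN1B and CDKN1C in controls and 12.3% to 15.9% after knockdown.

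**Figure D2:**
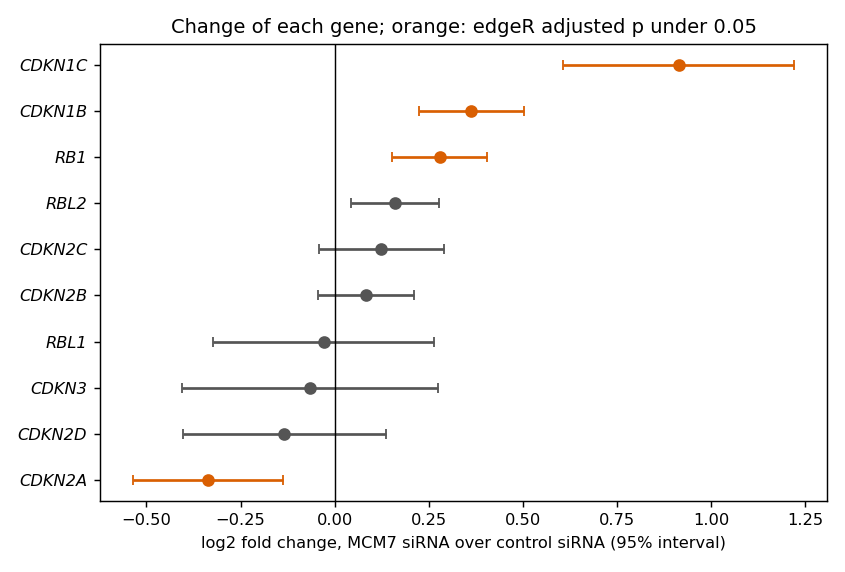
Log2 fold change of each gene (x axis, MCM7 siRNA over control siRNA, 95% interval from edgeR), with genes passing the threshold in orange. CDKN1C has the largest change at 0.91 and CDKN2A the lowest at -0.34, and the intervals of 5 genes include 0.

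Of the 4 INK4 genes only CDKN2A passed, and it was lower. CDKN2A lies on chromosome 9 at 21967752 to 21995301 (reverse strand). From separate first exons it makes the INK4 inhibitor p16INK4a, known for rising in senescent fibroblasts, and the p53 regulator p14ARF. Counts per gene do not separate these transcripts. The stretches around the RefSeq starts of both first exons are printed because the count does not separate the transcripts that begin there. The first 20 transcribed bases are in capitals after the 60 bases before them (RefSeq, GRCh38.p14, reverse strand). The positions are chr9:21995305-21995384 for p14ARF and chr9:21974838-21974917 for p16INK4a. The capitals of the p14ARF stretch lie upstream of the GENCODE gene range given above.
CDKN2A upstream start: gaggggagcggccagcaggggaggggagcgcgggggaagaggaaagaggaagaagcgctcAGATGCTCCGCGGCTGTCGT
CDKN2A downstream start: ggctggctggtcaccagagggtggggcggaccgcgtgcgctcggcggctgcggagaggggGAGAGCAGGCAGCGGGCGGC

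CDKN2A had 487, 485 and 509 reads with control siRNA and 275, 310 and 557 reads with MCM7 siRNA. Its level was 26.1, 24.2 and 24.04 CPM in the controls and 20.1, 15.2 and 23.3 CPM after knockdown. The controls were close together, while the knockdown libraries spread widely and MCM7 siRNA replicate 3 lay just below the lowest control. CDKN2A fell 1.26-fold (log2 fold change -0.34 ± 0.10 SE, 95% interval of the ratio 0.69 to 0.91, edgeR adjusted p = 0.0194). The call was lost with DESeq2 (adjusted p = 0.0516). It was also lost when control replicate 1, control replicate 2 or MCM7 siRNA replicate 2 was left out (edgeR adjusted p = 0.114, 0.0615 and 0.173). Without MCM7 siRNA replicate 2 the log2 fold change was -0.17, and without MCM7 siRNA replicate 3 it was -0.52.

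The neighbour CDKN2B (p15INK4b, an inhibitor induced by TGF-beta) did not pass. It lies on chromosome 9 at 22002903 to 22009305 and was at 37.4 to 39.4 CPM in controls and 38.8 to 43.2 CPM after knockdown (edgeR adjusted p = 0.43, 95% interval of the ratio 0.97 to 1.16). The reads of CDKN2A were 0.663, 0.617 and 0.643 of those of CDKN2B in controls and 0.490, 0.351 and 0.601 after knockdown. All 3 knockdown libraries were below the controls (exact two-sided permutation p = 0.10, the smallest possible, adjusted p = 0.15), and the log2 difference of -0.45 became -0.24 without MCM7 siRNA replicate 2. Of the other genes at this locus, MTAP, an enzyme of methionine salvage, was at 8.74 ± 0.563 CPM in controls and 8.96 ± 0.622 CPM after knockdown (edgeR adjusted p = 0.887). The antisense transcript CDKN2B-AS1, which overlaps CDKN2A exons on the opposite strand, had 1 to 6 reads in controls and 4 to 11 reads after knockdown, too few to test.

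CDKN2C and CDKN2D encode p18INK4c and p19INK4d, inhibitors of CDK4 and CDK6 with no alternative reading frame of the ARF kind. CDKN2C was at 28.1, 27.6 and 27.2 CPM with control siRNA and at 32.7, 33.2 and 25.2 CPM with MCM7 siRNA. MCM7 siRNA replicates 1 and 2 were above every control and replicate 3 was below every control. The gene did not pass (edgeR adjusted p = 0.36, log2 fold change 0.12 ± 0.08 SE), but without MCM7 siRNA replicate 3 it was called higher (log2 fold change 0.26, edgeR adjusted p = 0.00759). CDKN2D was at 5.78 to 6.38 CPM in controls and 4.65 to 6.95 CPM after knockdown and did not pass (edgeR adjusted p = 0.57, 95% interval of the ratio 0.756 to 1.10). Summed per length, the 4 INK4 genes were at 26.95 to 28.3 RPKM in controls and 26.1 to 29.1 RPKM after knockdown, and CDKN2A made up 20.4% to 21.3% and 12.9% to 20.5% of these sums.

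**Figure D3:**
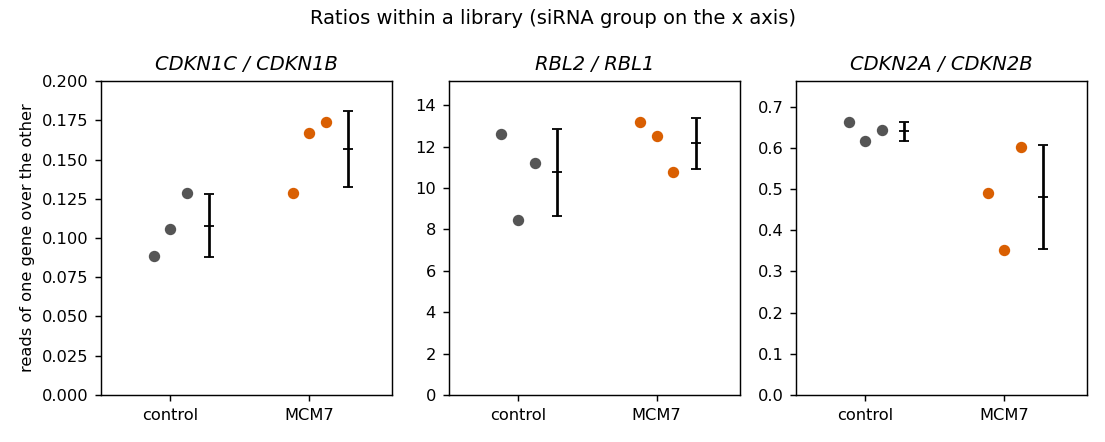
Reads of one gene divided by those of another in the same library (y axis, from 0) for 3 pairs of genes, with 3 libraries per group (x axis), the mean and the SD. The ratio of CDKN1C to CDKN1B is 0.129 to 0.174 after knockdown against 0.0888 to 0.129 in controls, that of CDKN2A to CDKN2B is lower after knockdown (0.351 to 0.601 against 0.617 to 0.663), and that of RBL2 to RBL1 overlaps.

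Among the pocket proteins RB1 rose. The retinoblastoma protein binds the activating E2F factors and is released from them when CDKs phosphorylate it. RB1 lies on chromosome 13 at 48303744 to 48599436 (forward strand). Its level was 40.3, 44.6 and 39.7 CPM with control siRNA and 51.7, 50.6 and 49.0 CPM with MCM7 siRNA. All knockdown libraries were above all controls, and RB1 rose 1.21-fold (log2 fold change 0.28 ± 0.06 SE, 95% interval 1.11-fold to 1.32-fold, edgeR adjusted p = 0.0021). The call held in each of 16 alternatives, with an adjusted p of at most 0.0296.

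RBL2 (p130), the pocket protein of DREAM in resting cells, lay at the edge of the threshold. It is on chromosome 16 at 53433977 to 53491648 and was at 53.9, 50.6 and 49.4 CPM in controls and 57.1, 58.7 and 56.2 CPM after knockdown. The groups did not overlap, but the log2 fold change of 0.16 ± 0.06 SE missed the threshold (95% interval 1.03-fold to 1.21-fold, edgeR adjusted p = 0.0597). RBL2 passed in 4 of 16 alternatives: with scaling by total counts alone (adjusted p = 0.0472), after thinning to the smallest library (0.0459), with limma on the deposited RPM (0.0457) and without MCM7 siRNA replicate 3 (0.0369).

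RBL1 (p107) replaces RBL2 on many promoters once cells enter the cycle and is itself a known target of E2F factors. It lies on chromosome 20 at 36996349 to 37095997 (reverse strand). Its promoter is shown because the site type through which pocket proteins act stands directly before the start. RefSeq promoters (GRCh38.p14, 250 bases before to 50 after the start) were matched for 9 of the 10 genes, all but CDKN1C, and numbered 13. The window of RB1 lies at an internal start (chromosome 13, 48476200 to 48476499), so that the one at the start of the whole gene was not searched. Among these 13 windows only that of RBL1 held a match to TTTCCCGC, TTTCGCGC, TTTGCCGC or TTTGGCGC on either strand, the letters searched for E2F. Such a match occurs in 3.31% of 35116 promoters of this length. RBL1 holds 2, which begin at positions -26 and -16 from the start and are in capitals (chr20:37095948-37096247, reverse strand).
RBL1 promoter: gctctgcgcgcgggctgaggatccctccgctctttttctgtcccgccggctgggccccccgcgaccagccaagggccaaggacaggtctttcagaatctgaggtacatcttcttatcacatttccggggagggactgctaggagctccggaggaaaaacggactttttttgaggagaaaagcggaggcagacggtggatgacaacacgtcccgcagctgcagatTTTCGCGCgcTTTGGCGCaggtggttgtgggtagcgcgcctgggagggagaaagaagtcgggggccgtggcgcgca

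RBL1 was low and did not pass. It had 80, 120 and 93 reads with control siRNA and 59, 96 and 124 reads with MCM7 siRNA. This is 4.29, 5.98 and 4.39 CPM against 4.32, 4.70 and 5.19 CPM, and the groups overlapped widely (edgeR adjusted p = 0.927, log2 fold change -0.03 ± 0.14 SE). The 95% interval of the ratio was 0.80 to 1.2. The reads of RBL2 were 8.47 to 12.6 times those of RBL1 in controls and 10.8 to 13.2 times after knockdown (exact two-sided permutation p = 0.50, adjusted p = 0.50). Per length RBL2 made up 45.7% to 50.4%, RB1 44.7% to 47.7% and RBL1 4.93% to 6.63% of the pocket protein RNA in controls.

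CDKN3 encodes a phosphatase that removes the activating phosphate from CDK2 and is expressed mainly in G2 and mitosis. It lies on chromosome 14 at 54396849 to 54420218 (forward strand). The letters TTTGAA or their reverse complement are the core of the CHR element at which MuvB complexes bind. They occurred in 2 of the 13 windows, beside 15.2% of all promoters of this length. These were the window of CDKN3 and 1 of 2 windows of RBL2. In RBL2 the match begins at position 24, after the start, and in CDKN3 at position -170. The position in CDKN3 counts from the RefSeq start of the window, which lies downstream of the GENCODE gene start given above. The CDKN3 promoter is printed with its match in capitals because the CHR element is the site type of mitotic DREAM targets (chr14:54396757-54397056). Whether this match is bound was not tested.
CDKN3 promoter: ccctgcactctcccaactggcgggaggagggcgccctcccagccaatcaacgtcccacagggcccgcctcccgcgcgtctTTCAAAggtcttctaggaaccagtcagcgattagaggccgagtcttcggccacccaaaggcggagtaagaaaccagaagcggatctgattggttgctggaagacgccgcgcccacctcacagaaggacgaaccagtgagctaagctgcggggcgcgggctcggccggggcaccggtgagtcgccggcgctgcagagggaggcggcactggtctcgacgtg

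CDKN3 did not pass. Its level was 4.61, 2.89 and 3.83 CPM with control siRNA and 3.44, 3.18 and 4.06 CPM with MCM7 siRNA. The knockdown values lay within the range of the controls (log2 fold change -0.07 ± 0.17 SE, edgeR adjusted p = 0.853, 95% interval of the ratio 0.755 to 1.21). The gene had 47 to 97 reads per library.

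**Figure D4:**
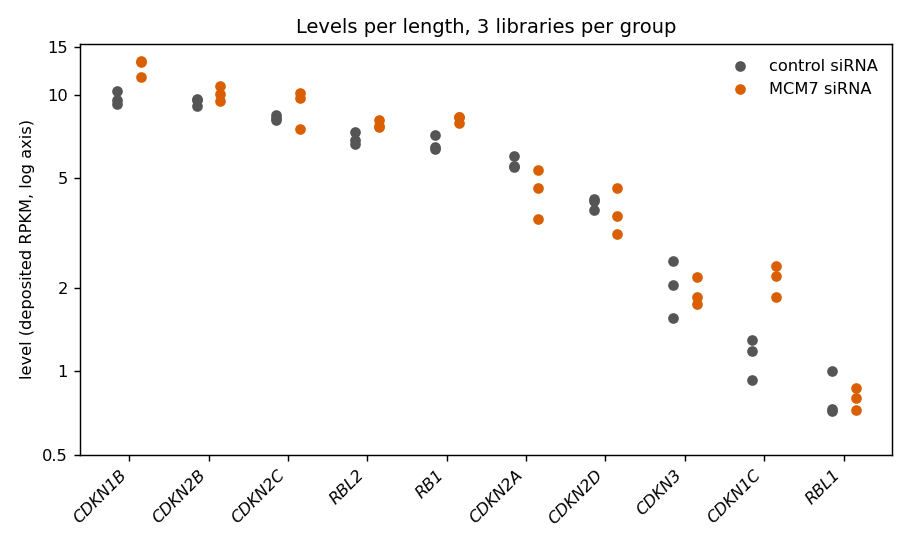
Level per length (y axis, deposited RPKM, log axis) of each gene in the 3 control siRNA (grey) and 3 MCM7 siRNA (orange) libraries, ordered by the control mean. CDKN1B is highest at 9.77 RPKM and RBL1 lowest at 0.817 RPKM in controls, and CDKN1C moves from 1.14 to 2.16 RPKM.

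Per length, the order of the levels in control cells was CDKN1B (9.77 ± 0.531 RPKM, SD, n = 3), CDKN2B (9.48 ± 0.308), CDKN2C (8.29 ± 0.170), RBL2 (6.98 ± 0.344), RB1 (6.69 ± 0.438), CDKN2A (5.70 ± 0.288), CDKN2D (4.06 ± 0.198), CDKN3 (2.05 ± 0.471), CDKN1C (1.14 ± 0.190) and RBL1 (0.817 ± 0.159). Neighbours in this order overlapped between libraries for CDKN1B and CDKN2B, RBL2 and RB1, and CDKN1C and RBL1, and were apart for the other 6 pairs. After knockdown RB1 (8.20 ± 0.237 RPKM) stood before RBL2 (7.86 ± 0.253) and CDKN1C (2.16 ± 0.275) before CDKN3 (1.94 ± 0.232), but the libraries of both pairs overlapped. RPKM rests on 1 length per gene chosen by the authors and on counts of unique reads, so that this order depends on these lengths.

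Set against the kinases, CDKN1B and CDKN1C together were at 5.31, 5.95 and 5.85 times the RPKM of CDK2 in controls and at 6.74, 6.58 and 6.09 times after knockdown. The groups did not overlap, but the gap between 5.95 and 6.09 was narrow. Among single genes the groups were apart for 29.6% of all tested. CDKN1B made up most of the sum in every library. The 4 INK4 genes together were at 1.44 to 1.61 times the RPKM of CDK4 and CDK6 in controls and at 1.46 to 1.67 times after knockdown. These ratios are of RNA and were not tested. CDK2 was at 7.49 ± 0.329 CPM in controls and 8.93 ± 0.168 CPM after knockdown (edgeR adjusted p = 0.0969). CDK4 was at 42.0 ± 2.01 and 37.6 ± 0.367 CPM (edgeR adjusted p = 0.0837), and both kinases were named here after their values were seen.

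Of the 8 G1 cyclins and their kinases 2 were higher and the other 6 did not pass, with a median log2 fold change of 0.24. For this and the following lists, 6.18% of all tested genes were called higher and 6.65% lower. The kinase gene CDK6 rose 1.16-fold (edgeR adjusted p = 0.02) and the D-type cyclin CCND3 rose 1.19-fold (edgeR adjusted p = 0.0281). CDK6 was at 57.6, 71.0 and 60.7 CPM in controls and 70.4, 76.4 and 73.3 CPM after knockdown, so that its groups overlapped. Both calls were lost in 3 of the 6 fits with 1 library left out, and for CCND3 also with DESeq2 (adjusted p = 0.0997). The libraries were control replicate 1, control replicate 3 and, for CDK6, MCM7 siRNA replicate 2 or, for CCND3, MCM7 siRNA replicate 3, with edgeR adjusted p of up to 0.169 and 0.171.

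Among the partners of the pocket proteins 1 gene was called, where 12.8% of all tested genes were called in either direction. Of 8 tested E2F and DP factors TFDP2, a dimer partner of E2F proteins, fell 1.23-fold (40.2 ± 1.24 CPM in controls, 32.6 ± 0.893 CPM after knockdown, edgeR adjusted p = 0.00103), and it kept its call in all 16 alternatives. The median log2 fold change of this list was -0.0148. Of 8 genes of the MuvB core, its kinase DYRK1A and its activators, edgeR called 0, with 0 at an unadjusted p under 0.05 and 0 with DESeq2. RBBP4, a histone-binding subunit of MuvB, was at 59.9 ± 1.47 CPM in controls and 62.0 ± 4.24 CPM after knockdown, and DYRK1A, which starts DREAM assembly, at 33.2 ± 1.6 and 36.0 ± 1.2 CPM.

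The targets of these brakes were examined as separate lists, without a test between lists. Of 15 E2F targets of the G1/S transition only TK1, a thymidine kinase, was called, and it was 1.39-fold lower (edgeR adjusted p = 0.0438), but the call was lost with DESeq2 (adjusted p = 0.183) and in 5 of 6 fits with 1 library left out. Only the fit without MCM7 siRNA replicate 3 kept it, and in those lacking a control or MCM7 siRNA replicate 1 or 2 the edgeR adjusted p reached 0.203. The median log2 fold change of this list was -0.0286, and 6.65% of all tested genes were called lower. Of 20 DREAM targets of G2 and mitosis 5 rose, with a median log2 fold change of 0.15. Of all tested genes 6.18% were called higher. TOP2A, a topoisomerase, rose 1.45-fold (edgeR adjusted p = 3.46e-06), HMMR, a spindle protein, 1.89-fold (edgeR adjusted p = 0.000376), CENPF, a kinetochore protein, 1.37-fold (edgeR adjusted p = 0.00194) and CDK1, the mitotic kinase, 1.5-fold (edgeR adjusted p = 0.00752). For CDK1 the call was lost with DESeq2 (adjusted p = 0.0546) and when control replicate 2 was left out (edgeR adjusted p = 0.0531). MKI67, a marker of cycling cells named after its value was seen, was at 6.13 ± 0.50 and 5.72 ± 0.455 CPM (edgeR adjusted p = 0.667). The list of mitotic cyclins and CDK1 holds 4 genes, all of them also in the G2/M list, with a median log2 fold change of 0.28. In it CDK1 and the B-type cyclin CCNB2, which rose 1.41-fold (edgeR adjusted p = 0.024), were called. For CCNB2 the call was lost with DESeq2 (adjusted p = 0.128) and on leaving out control replicate 1, control replicate 2 or MCM7 siRNA replicate 3 (edgeR adjusted p of up to 0.205). The part of these genes in the changes of the inhibitors was not tested.

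**Figure D5:**
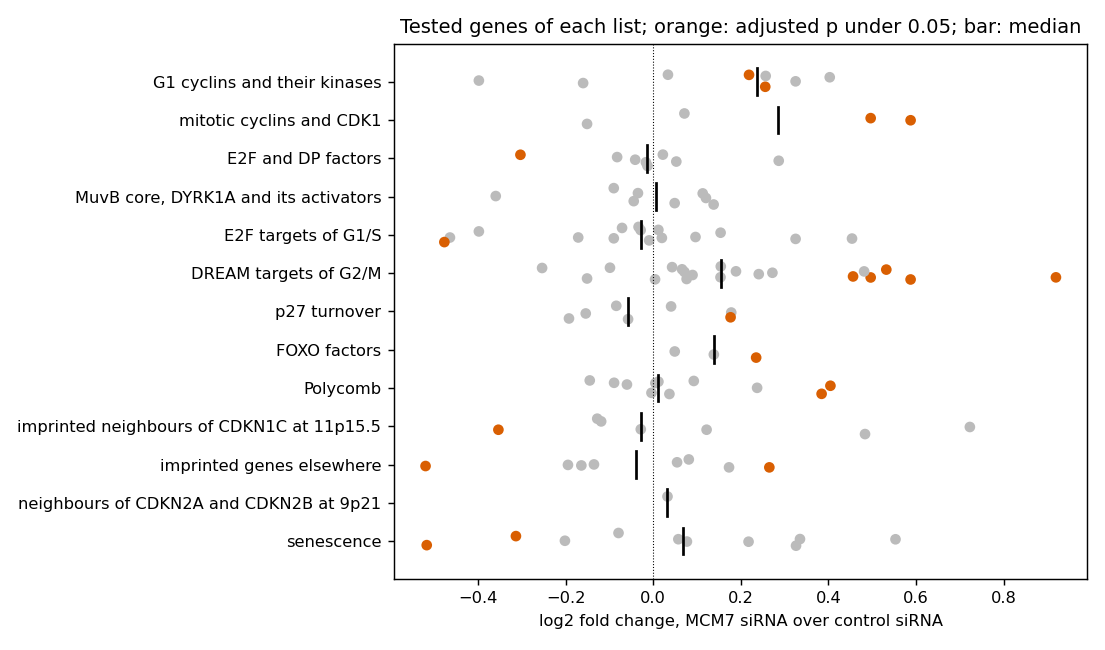
Log2 fold change (x axis, MCM7 siRNA over control siRNA) of the tested genes of 13 lists around the inhibitors and pocket proteins. Points are genes, called genes are orange, bars are medians and the dotted line is 0. The called G2/M targets are all to the right, up to 0.92 for HMMR, and the called senescence genes are to the left, with IGFBP3 at -0.52.

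Among genes that act on the inhibitors, FOXO3, a transcription factor that activates CDKN1B and is held back by growth factor signals, rose 1.18-fold (45.9 ± 0.961 CPM in controls, 54.1 ± 3.19 CPM after knockdown, edgeR adjusted p = 0.00748). FOXO1 and FOXO4, the other members of its list, did not pass. Over the 3 genes the median log2 fold change was 0.14, and 6.18% of all tested genes were called higher. The FOXO3 call was lost without control siRNA replicate 3 (edgeR adjusted p = 0.056). Of 7 genes of p27 turnover, CUL1, the scaffold of the ubiquitin ligase that degrades CDKN1B protein, rose 1.13-fold (edgeR adjusted p = 0.0244), but not without any 1 of the 3 control libraries or MCM7 siRNA replicate 1 (edgeR adjusted p of up to 0.0995). That list had a median log2 fold change of -0.0573. Of 11 tested Polycomb genes, whose products silence the CDKN2A locus in young fibroblasts, CBX7 rose 1.32-fold (8.27 ± 0.845 CPM in controls, 10.9 ± 0.855 CPM after knockdown, edgeR adjusted p = 0.00795), and JARID2 rose 1.31-fold (15.7 ± 1.16 CPM in controls, 20.4 ± 1.84 CPM after knockdown, edgeR adjusted p = 0.00204). CBX7, a subunit that reads methylated histone H3, lost its call without control siRNA replicate 3 (edgeR adjusted p = 0.0714). The median log2 fold change of the Polycomb list was 0.0119. What part the FOXO, p27 turnover and Polycomb genes have in the changes of CDKN1B and CDKN2A was not tested.

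Of the listed neighbours of CDKN1C on chromosome 11 none was called higher, where 6.18% of all tested genes were called higher and 6.65% lower. Of the 7 tested neighbours only PHLDA2, a growth-restraining gene that is also expressed from the maternal allele, was called. It fell 1.28-fold (27.2 ± 1.75 CPM in controls, 21.1 ± 3.07 CPM after knockdown, edgeR adjusted p = 0.00426). That call was lost without control siRNA replicate 2 (edgeR adjusted p = 0.0539). KCNQ1 had 0 reads in every library, and KCNQ1OT1, the non-coding RNA that silences CDKN1C on the paternal allele, had 13 to 22 reads in controls and 18 to 30 after knockdown (edgeR adjusted p = 0.305, named after its values were seen). The median log2 fold change of the 7 tested neighbours was -0.0283. Of 8 tested imprinted genes elsewhere, PLAGL1, a zinc finger factor, fell 1.43-fold (25.9 ± 1.31 CPM in controls, 18.0 ± 1.74 CPM after knockdown, edgeR adjusted p = 2.41e-05), and GRB10, an adaptor that dampens insulin signalling, rose 1.2-fold (edgeR adjusted p = 0.00807). For these 8 genes the median log2 fold change was -0.0403. GRB10 lost its call without control siRNA replicate 1 (edgeR adjusted p = 0.0938).

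Of 10 tested senescence genes 2 fell and the others did not pass, with a median log2 fold change of 0.07. Of all tested genes 6.65% were called lower. IL6 and CXCL8, which were not called, were above all controls in every knockdown library. Their log2 fold changes were 0.33 and 0.55 (edgeR adjusted p = 0.0525 and 0.0803). Also without a call, CCL2 and HMGB2 were higher on average, and LMNB1 and MMP1 lower. These uncalled genes were named after their values were seen. IGFBP3, a secreted binding protein of insulin-like growth factors, fell 1.43-fold (4478 ± 49.1 CPM in controls, 3129 ± 52.6 CPM after knockdown, edgeR adjusted p = 8.03e-09). IGFBP3 kept its call in all 16 alternatives, unlike CDKN2A.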

How the data were processed

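Poly(A)+ RNA of 6 samples, 3 per group, was sequenced as stranded libraries from 1 end. According to the study's methods and the submitters' processing notes, reads were mapped with TopHat2 2.1.0 to GRCh38, only unique reads on annotated loci were kept, and featureCounts 1.5.0 counted them by strand. The authors deposited raw counts per gene, RPM values (counts scaled to the same sum in every library) and RPKM values (RPM divided by 1 length per gene). Their total counts lay between 13721281 and 23969024, and precision is lowest for genes with few reads.

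Counts were tested with edgeR 4.0.16 (filterByExpr, TMM, quasi-likelihood, two-sided, Benjamini-Hochberg over 14667 genes, threshold 0.05, R 4.3.3). Standard errors and 95% intervals come from the same fit. Alternatives covered scaling, filters, DESeq2 1.42.0, limma 3.58.1 on voom values and on log2(RPM + 0.5), a replicate block, thinning, a limit of 1.5-fold, the rule of both tools, which was chosen after seeing the data, and leaving out each library. DESeq2 gave no adjusted p for some low genes, which stayed missing. Ratios within a library were compared by exact permutation with scipy 1.17.1, with 0.5 added to the reads, and RPKM served for levels between genes. The edgeR script was tested on simulated data.

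The members and the gene lists were chosen with earlier results of these data known. Named were all members, MCM7, and per list up to 4 called genes with the smallest p or, with none called, up to 2 with the highest level. Other names are marked in the text, except the cell type markers, FOXO1, FOXO4, KCNQ1 and CDKN2B-AS1, which were named outside this rule. Gene positions were read from GENCODE 44 (GRCh38) by Ensembl identifier, and promoters from RefSeq. The result of 1 further gene of the senescence list is not reported here.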

Additional observations from a re-analysis of the deposited data

How the results depend on the processing

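CDKN1C, CDKN1B and RB1 kept their direction and their call under each of 16 alternatives other than the fold limit, with log2 fold changes of 0.79 to 1.03, 0.33 to 0.42 and 0.25 to 0.33. With at least 1.5-fold change 1 member was higher, 0 were lower and 188 genes were called in all. The count of lower members, 1 in the test reported, was 0 with DESeq2 and with the rule of both tools. Leaving out 1 library gave 3 to 5 higher members, 0 to 1 lower members and 1151 to 2265 called genes. The 5 higher members without MCM7 siRNA replicate 3 included CDKN2C and RBL2. CDKN3 and RBL1, which were not called, had the opposite sign in 2 of 16 alternatives each. No result that was called changed sign. Deviations of same-numbered samples from their group means correlated at -0.0122, -0.0259 and -0.0173. These correlations cover all tested genes alike, where low counts add noise, so they cannot decide whether the numbers pair the samples. With the replicate number as a block 3 members were higher, 1 was lower and 1961 genes were called. In that fit the edgeR adjusted p of CDKN2A was 0.0058. The ratios of members have no block. CDKN1C, CDKN3, RBL1 and CDKN2D, at under 140 reads in every library, are the members for which depth limits the precision most.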
